A study of Homo sapiens with 6 samples.

Results

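A set of 10 genes of the Hippo pathway's output were examined in J82 cells, a human bladder cancer line, with and without disruption of the forkhead factor FOXC1. They were YAP1, WWTR1, TEAD1, TEAD4, CTGF, CYR61, ANKRD1, AMOTL2, AJUBA and LATS2. They were chosen by name, as known parts of the pathway, with earlier results of these data known. All 10 were among the 57820 genes of the table and among the 15647 that passed the filter on low counts. In the FOXC1 KO libraries CTGF was 2.06-fold higher and CYR61 1.69-fold higher than in control, whereas ANKRD1 was 1.31-fold lower. YAP1 itself, TEAD1, AMOTL2, AJUBA and LATS2 did not pass the test. WWTR1, the gene of TAZ, was 1.22-fold higher and TEAD4 1.18-fold lower. Both had an edgeR adjusted p under 0.05 but did not reach the fold threshold of 1.3.

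YAP and TAZ are transcriptional coactivators that bind no DNA themselves and reach their targets through the TEAD transcription factors. The Hippo kinases LATS1 and LATS2 phosphorylate both coactivators, which then stay in the cytoplasm or are degraded. CTGF, CYR61 and ANKRD1 are the transcripts most often read as their output, and LATS2 and AMOTL2 are targets that also restrain the coactivators. Much of this regulation acts on proteins, through phosphorylation and location in the cell, which RNA counts do not measure.

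RNA-seq of polyadenylated transcripts covered 3 libraries of control cells and 3 of FOXC1 KO cells, all J82 grown in the same medium with fetal bovine serum. FOXC1 had been targeted with a guide in the Cas9 lentivirus lentiCRISPR v2, and loss of FOXC1 protein had been checked by western blotting. Per the study's methods, control cells carried a vector, transduced cells were selected with puromycin, and KO clones were used. Whether the 3 libraries of a group came from separate clones or cultures is not given, so the p-values here measure the spread between these libraries, which may be technical. Libraries held between 18408134 and 25350908 counts. Levels are given as CPM, the read count of a gene scaled to a library of 1000000 counts, with library totals adjusted by TMM, as mean ± SD over 3 libraries. A gene was called higher or lower when its Benjamini-Hochberg adjusted p in edgeR's quasi-likelihood test was under 0.05 and its fold change over 1.3.

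The targeted gene did not check the labels. FOXC1 (ENSG00000054598.5) was at 18.4, 16.9 and 19.3 CPM in control replicates 1 to 3, and at 24.1, 22.2 and 21.1 CPM in the libraries labelled FOXC1 KO. Each KO library was above each control library (log2 fold change 0.30, SE 0.0914, edgeR adjusted p = 0.0127), a 1.23-fold difference that did not reach the fold threshold. A guide-directed cut can leave the transcript in place, and the reads over the cut were not analysed here. All directions given for KO are those of the libraries carrying that label. Over all genes tested, 7.57% were called higher in KO and 8.39% lower. Among the markers of urothelium, 5 of the 6 that could be tested were called lower in KO (KRT8, KRT18, KRT19, GATA3 and PPARG). KRT7 was at 992 ± 103 CPM in control and 948 ± 68.3 CPM in KO. The summed level of all 13 urothelial markers was 3176 to 3997 CPM in control and 2486 to 2763 CPM in KO. The uroplakins UPK1A, UPK1B, UPK2 and UPK3A, which define differentiated urothelium, had at most 5 counts in a library. Of 9 leukocyte, endothelial and fibroblast markers 8 had a matched identifier and 4 were tested, of which CD14 and CDH5 were called higher and DCN lower. CDH5 had 0, 0 and 1 counts in control and 18, 18 and 26 in KO, and CD3E 0 in all 6 libraries. The summed level of the 8 was 72.3 to 72.6 CPM in control and 58.8 to 77.3 CPM in KO. Of 5 epithelial and mesenchymal markers, 1 (EPCAM) was called lower, at 2.08 ± 0.247 CPM in control and 1.14 ± 0.0775 CPM in KO. VIM was 1.23-fold higher (edgeR adjusted p = 0.00137), under the fold threshold. CDH2 and FN1 did not pass the test, and CDH1 did not pass the filter. The part of these markers in the results was not tested, and in bulk RNA fewer cells of a kind and less RNA per cell cannot be told apart.

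To show where the factors discussed here could meet the DNA of these genes, the 250 bases before the annotated start were read from RefSeq promoter sequences (GRCh38.p14) and placed on GRCh37 by exact match. Entries matched 7 of the 10 genes. TEAD1, TEAD4 and CYR61 had none. The promoters of CTGF and ANKRD1 are shown because both hold TEAD motifs while their transcripts moved in opposite directions. That of YAP1 is shown because it holds 1, though 1 start of AMOTL2 and 1 of AJUBA, not shown, also hold 1 each. That of WWTR1 is shown because it holds GTAAACA, the only form of the forkhead motif that was searched. Other forms were not counted in any window. Capitals mark GGAATG, the core TEAD motif, in the first 3 sequences and GTAAACA, a forkhead motif, in the fourth, each written 5′ to 3′ on the strand of its gene:
CTGF, chr6:132272513-132272762, minus strand: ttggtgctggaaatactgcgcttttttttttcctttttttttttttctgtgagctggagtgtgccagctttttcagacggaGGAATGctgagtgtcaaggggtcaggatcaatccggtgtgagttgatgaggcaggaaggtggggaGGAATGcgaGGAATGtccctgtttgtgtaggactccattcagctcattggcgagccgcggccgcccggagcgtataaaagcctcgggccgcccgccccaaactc
ANKRD1, chr10:92680845-92681094, minus strand: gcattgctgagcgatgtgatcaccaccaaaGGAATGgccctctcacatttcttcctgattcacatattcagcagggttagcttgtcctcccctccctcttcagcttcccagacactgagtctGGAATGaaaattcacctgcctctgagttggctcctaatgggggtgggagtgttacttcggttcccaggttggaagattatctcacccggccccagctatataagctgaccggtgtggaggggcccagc
YAP1, chr11:101980928-101981177, plus strand: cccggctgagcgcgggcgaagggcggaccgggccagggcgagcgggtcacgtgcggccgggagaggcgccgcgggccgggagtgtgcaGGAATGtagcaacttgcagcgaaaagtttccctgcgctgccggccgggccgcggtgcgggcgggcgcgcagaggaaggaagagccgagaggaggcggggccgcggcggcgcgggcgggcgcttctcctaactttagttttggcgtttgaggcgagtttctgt
WWTR1, the more upstream of its starts in that table, chr3:149421061-149421310, minus strand: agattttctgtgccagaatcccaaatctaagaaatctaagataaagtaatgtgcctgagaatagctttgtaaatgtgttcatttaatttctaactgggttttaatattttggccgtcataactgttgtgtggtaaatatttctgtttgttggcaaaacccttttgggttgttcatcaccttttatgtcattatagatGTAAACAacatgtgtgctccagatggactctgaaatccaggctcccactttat

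GGAATG, searched on both strands, occurred 3 times in the CTGF promoter, beginning 169, 104 and 95 bases before the start. Of 35116 promoter windows of the same length, 11.9% held at least 1 such match, 0.94% at least 2 and 0.0826% at least 3. The ANKRD1 window held 2, at 220 and 128 bases, and the YAP1 window 1, at 162 bases. One start of AMOTL2 had a match on the opposite strand at 69 bases, and 1 start of AJUBA a match at 59 bases. The LATS2 window and both WWTR1 windows held none. GTAAACA occurred only before that WWTR1 start, at 53 bases, among the members' windows, and in 2.98% of all windows. That start lies inside the annotated WWTR1 gene, and its use in these cells was not examined. TGANTCA, a loose form of the AP-1 motif that allows any middle base, was searched as well. It occurred in the ANKRD1 window at 195 bases, as TGATTCA, and in 6.57% of all windows. A stricter form was not searched. None of these matches overlapped a match to another motif. No member's window held a CArG box, the site of serum response factor, which 1.16% of all windows held. These matches are letters in a window and describe no binding, which was not measured here.

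**Figure D1:**
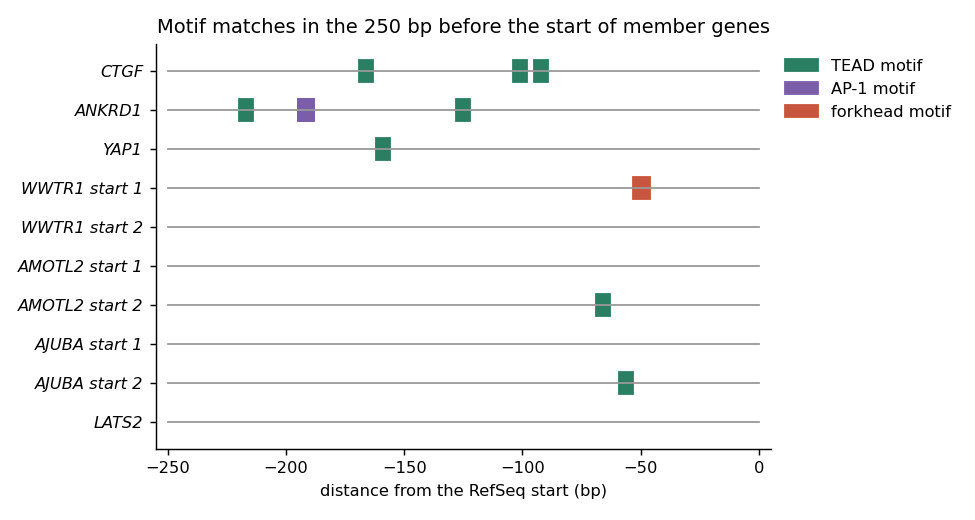
Motif matches in the 250 bases before the annotated starts of the 7 members with a RefSeq entry; the x axis is the distance from the start in bases and each row is 1 start. The CTGF row holds 3 TEAD matches and the ANKRD1 row 2, and the forkhead match lies before 1 of the starts of WWTR1.

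Over the 10 genes, 2 were called higher in KO and 1 lower. Over all genes tested, 7.57% were called higher and 8.39% lower. With no fold threshold, 5 of the 10 had an edgeR adjusted p under 0.05 (3 higher, 2 lower), against 29.4% of all genes tested. Control and KO libraries did not overlap for 6 of the 10, against 41.3% of all genes tested. The median log2 fold change of the 10 was 0.040, beside -0.00084 over all genes, so the members did not move one way as a set. The calls higher were CTGF and CYR61 and the call lower ANKRD1, while WWTR1 and TEAD4 had an adjusted p under 0.05 without reaching the fold threshold.

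**Figure D2:**
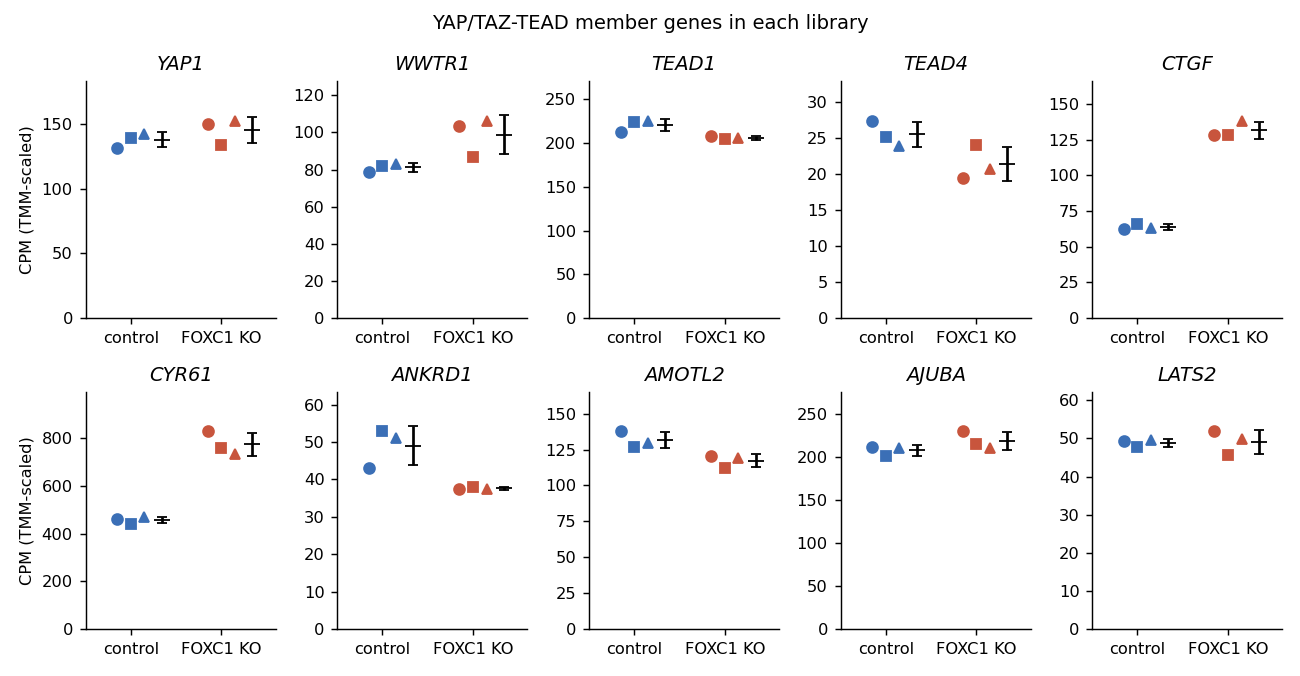
CPM of each member in the 6 libraries (points, shapes for replicates 1 to 3) with the mean and SD of each group of 3. CTGF and CYR61 show KO points well above the control points, ANKRD1 shows KO points below them, and the points of YAP1, AJUBA and LATS2 overlap.

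The coactivators were examined first. YAP1 (ENSG00000137693.9, chr11:101981178-102104155, plus strand) was at 131, 139 and 142 CPM in control and at 150, 134 and 152 CPM in KO replicates 1 to 3. KO replicate 2 lay among the control libraries, so the groups overlapped. The log2 fold change was 0.08 (95% interval -0.07 to 0.22, edgeR adjusted p = 0.45), an interval that leaves out a change of 1.3-fold in either direction (0.38 on the log2 scale). WWTR1 (ENSG00000018408.10, chr3:149235022-149454501, minus strand) encodes TAZ, the paralog of YAP. It was at 78.6, 82.1 and 83.1 CPM in control and at 104, 86.7 and 106 CPM in KO. Every KO library was above every control library, with KO replicate 2 the nearest to control. WWTR1 rose by 0.28 on the log2 scale (SE 0.0781, 95% interval 0.12 to 0.44, edgeR adjusted p = 0.00665) without reaching 1.3-fold. Without KO replicate 3 the log2 fold change of WWTR1 was 0.22 and the edgeR adjusted p 0.0542. Inside a library the ratio of WWTR1 to YAP1 counts was 0.598, 0.590 and 0.584 in control and 0.691, 0.649 and 0.698 in KO. The ratio was higher in each KO library than in each control library, by 0.20 on the log2 scale (exact two-sided permutation p = 0.1, adjusted over 4 ratios 0.133), and 0.1 is the smallest p that 3 libraries against 3 allow.

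The TEADs give the coactivators their contact with DNA. TEAD1 (ENSG00000187079.10, chr11:12695968-12966284, plus strand) was the most abundant of them by CPM, at 213, 224 and 226 CPM in control and 208, 204 and 206 CPM in KO. All KO libraries were below all control libraries by a small margin (log2 fold change -0.10, 95% interval -0.24 to 0.04, edgeR adjusted p = 0.277). TEAD4 (ENSG00000197905.4, chr12:3068496-3149842, plus strand) was at 27.4, 25.1 and 23.9 CPM in control and at 19.5, 24.0 and 20.7 CPM in KO. KO replicate 2 reached the level of control replicate 3, so the groups met. The log2 fold change of TEAD4 was -0.24 (SE 0.0930, edgeR adjusted p = 0.0471), under the fold threshold, and in 7 of 13 alternatives the adjusted p was 0.05 or more, up to 0.204. The log2 ratio of TEAD4 to TEAD1 differed by -0.15 between the groups, which overlapped (exact two-sided permutation p = 0.3, adjusted over 4 ratios 0.3). TEAD3 was at 22.7 ± 2.38 CPM in control and 22.3 ± 0.798 CPM in KO (edgeR adjusted p = 0.886), and TEAD2 did not pass the filter.

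The vestigial-like proteins compete with YAP and TAZ for the TEADs. VGLL3 was at 115 ± 10.9 CPM in control and 118 ± 12.7 CPM in KO, and VGLL4, a repressive TEAD partner, at 32.0 ± 2.16 and 35.1 ± 1.12 CPM. Neither passed the test (edgeR adjusted p = 0.777 and 0.228). VGLL2 was called higher (log2 fold change 0.76, SE 0.224, edgeR adjusted p = 0.0103) from 0.981 ± 0.0802 to 1.67 ± 0.120 CPM, a level near the filter, and DESeq2 gave it an adjusted p of 0.0931. Of the 8 coactivator, TEAD and vestigial-like genes tested, of 10 listed, VGLL2 was the only one called, and the median log2 fold change of the 8 was 0.057. Such a count is too small to set apart from the 7.57% called higher over all genes tested.

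The direct targets came next. CTGF (ENSG00000118523.5, chr6:132269316-132272512, minus strand) encodes the secreted matricellular protein CCN2. It was at 62.2, 65.8 and 63.4 CPM in control and at 128, 128 and 138 CPM in KO. The 2 groups were far apart and tight within themselves, at 63.8 ± 1.81 and 131 ± 5.92 CPM. CTGF rose 2.06-fold (log2 fold change 1.04, SE 0.0717, 95% interval 0.90 to 1.19, edgeR adjusted p = 2.32e-12). Among the 1184 genes called higher it ranked 296 by fold and 45 by p.

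CYR61 (ENSG00000142871.11, chr1:86046444-86050272, plus strand) encodes CCN1, which like CCN2 binds integrins in the extracellular matrix. It was at 462, 443 and 468 CPM in control and at 830, 761 and 736 CPM in KO. All KO libraries lay above all control libraries, KO replicate 1 the highest. CYR61 rose 1.69-fold (log2 fold change 0.76, SE 0.0705, 95% interval 0.62 to 0.91, edgeR adjusted p = 1.26e-09). The ratio of CYR61 to CTGF counts was 7.43, 6.73 and 7.39 in control and 6.47, 5.95 and 5.32 in KO. CTGF had gained on CYR61 in every KO library (log2 ratio 2.84 ± 0.0804 against 2.56 ± 0.142, exact two-sided permutation p = 0.1, adjusted over 4 ratios 0.133).

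ANKRD1 (ENSG00000148677.6, chr10:92671853-92680844, minus strand), an ankyrin-repeat cofactor also known as CARP, was at 43.1, 52.9 and 51.1 CPM in control and at 37.3, 38.1 and 37.3 CPM in KO. The KO libraries were close to each other and all below control, of which replicate 1 was the lowest. ANKRD1 fell by 0.38 on the log2 scale (SE 0.0832, 95% interval -0.55 to -0.21, edgeR adjusted p = 0.000723), 1.31-fold and so just past the fold threshold, at rank 1296 by fold of the 1313 genes called lower. Leaving out control replicate 2 or 3 gave log2 fold changes of -0.33 and -0.35, which ended the call by fold while the edgeR adjusted p stayed at 0.00594 or less. Leaving out control replicate 1 gave -0.48. Counts of ANKRD1 divided by those of CTGF, a ratio chosen after its values were seen, were 0.693, 0.804 and 0.807 in control and 0.291, 0.298 and 0.270 in KO. The 2 targets that stood near parity in control libraries were thus 2.68-fold further apart in KO, a difference given without a test.

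**Figure D3:**
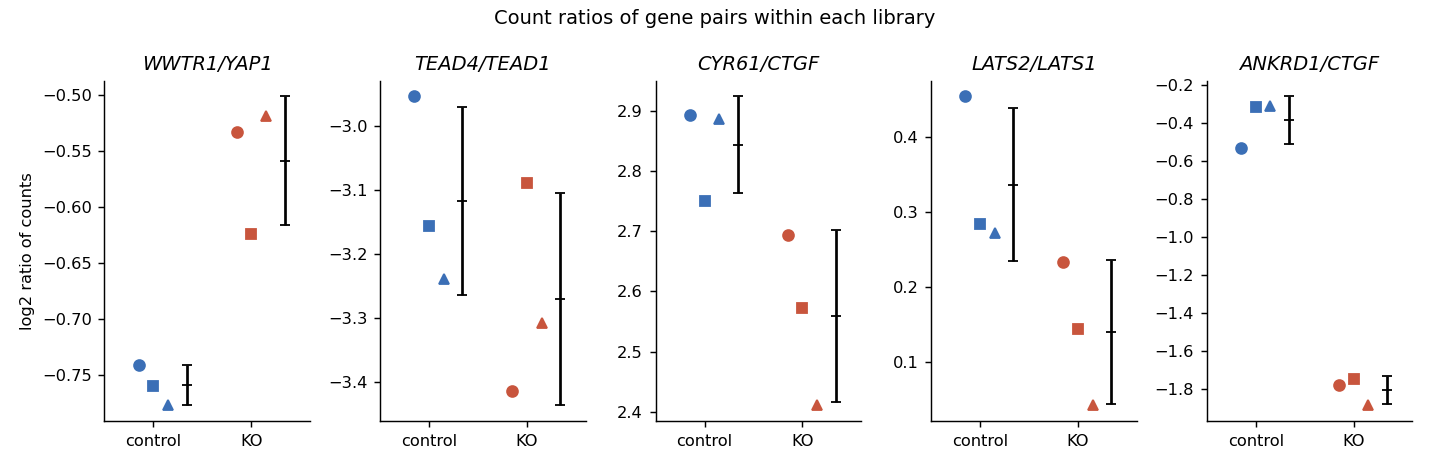
Within-library log2 count ratios of 5 gene pairs in the 3 control and 3 KO libraries; each point is 1 library, its shape the replicate number, and the bars are the group mean and SD. The ANKRD1 to CTGF ratio falls from -0.38 to -1.81, and the TEAD4 to TEAD1 ratio is the 1 pair in which the groups overlap.

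AMOTL2, AJUBA and LATS2 are tied to the feedback on the coactivators. AMOTL2 (ENSG00000114019.10, chr3:134074189-134094321, minus strand), an angiomotin that can hold YAP at junctions, was at 138, 127 and 130 CPM in control and at 121, 112 and 119 CPM in KO. All KO libraries were below all control libraries, but the difference did not pass the test (log2 fold change -0.17, SE 0.0699, edgeR adjusted p = 0.0742). AJUBA (ENSG00000129474.11, chr14:23440386-23451760, minus strand), a LIM protein that can inhibit LATS kinases, was at 212, 201 and 211 CPM in control and at 230, 216 and 211 CPM in KO. The groups overlapped (log2 fold change 0.07, 95% interval -0.07 to 0.21, edgeR adjusted p = 0.448). LATS2 (ENSG00000150457.7, chr13:21547175-21635725, minus strand) was at 49.2, 47.7 and 49.6 CPM in control and at 51.9, 45.6 and 49.9 CPM in KO. Its groups were mixed and its log2 fold change was near 0 (0.0059, 95% interval -0.15 to 0.16, edgeR adjusted p = 0.965), with a sign that depended on the scaling. For LATS2, as for YAP1, TEAD1 and AJUBA, the interval leaves out a 1.3-fold change.

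Compared per length, as CPM divided by exon length in kilobases (RPKM), CYR61 led the members in both groups, at 124 RPKM in control and 209.8 RPKM in KO. AJUBA followed in control at 35.4 RPKM, and then ANKRD1 and CTGF at 27.4 and 27.3 RPKM, whose libraries overlapped. YAP1 was at 21.8, TEAD1 at 20.6 and AMOTL2 at 20.3 RPKM, and within this trio neighbours overlapped. TEAD4 at 11.2, WWTR1 at 9.73 and LATS2 at 8.70 RPKM closed the order. In KO the second place was held by CTGF at 56.2 RPKM, above AJUBA at 37.2 RPKM. ANKRD1 stood at 21.0 RPKM there, beside YAP1 at 23.0 RPKM, with overlapping libraries. TEAD1 at 19.3 and AMOTL2 at 18.1 RPKM came next. WWTR1 at 11.8 RPKM then stood above TEAD4 at 9.42 and LATS2 at 8.75 RPKM, and neighbours among these 3 overlapped. In both groups YAP1 was thus more abundant than WWTR1 per length.

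**Figure D4:**
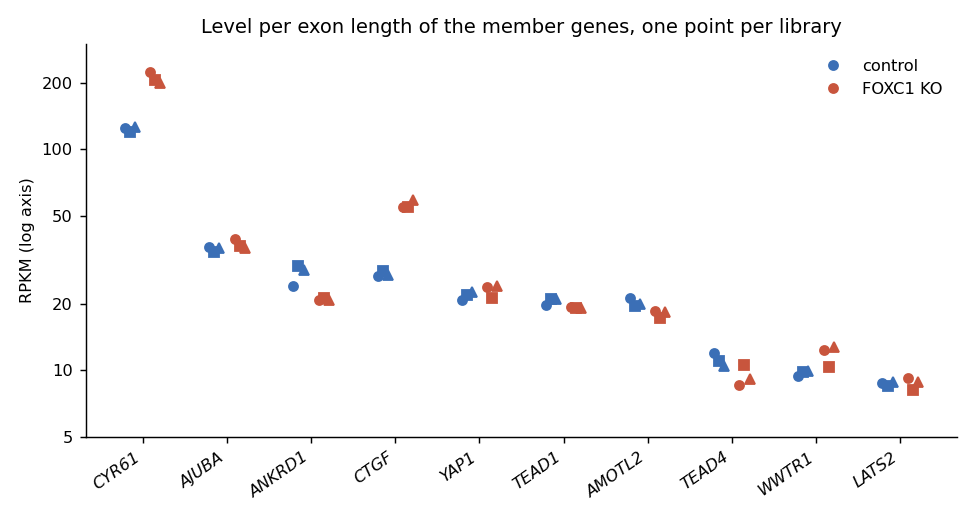
RPKM of the 10 members in control and KO libraries on a log axis; points are libraries. CYR61 is the highest in both groups, and CTGF moves from beside ANKRD1 at about 27 RPKM to 56.2 RPKM.

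The kinase core acts upstream of the coactivators. Of its 7 genes 1 was called higher and none lower, a count too small to set apart from the 7.57% called higher over all genes. The called gene was MOB1B, a LATS cofactor, which was at 34.8 ± 3.43 CPM in control and 46.2 ± 4.87 CPM in KO (log2 fold change 0.41, SE 0.0887, edgeR adjusted p = 0.000765). Its fold fell under 1.3 when control replicate 1 or KO replicate 3 was left out, with log2 fold changes of 0.33 and 0.32. The Hippo kinases STK3 and STK4 (MST2 and MST1) were at 38.0 and 197 CPM in control and 38.0 and 221 CPM in KO (edgeR adjusted p = 0.999 and 0.0564). LATS1 was at 38.7 ± 2.61 and 44.6 ± 3.62 CPM (edgeR adjusted p = 0.0664). SAV1 and MOB1A had log2 fold changes of 0.0041 and -0.016. The log2 ratio of LATS2 to LATS1 counts was 0.34 ± 0.102 in control and 0.14 ± 0.0958 in KO, lower in each KO library (exact two-sided permutation p = 0.1, adjusted over 4 ratios 0.133). The median log2 fold change of the kinase core was 0.0059.

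Of 19 upstream regulators and scaffolds, 18 were tested and 2 were called higher, none lower, with a median log2 fold change of 0.074. The shares over all genes tested were 7.57% higher and 8.39% lower. WWC1 (KIBRA), a scaffold that promotes LATS activation, was at 28.8 ± 0.259 CPM in control and 47.6 ± 1.51 CPM in KO, 1.65-fold higher (edgeR adjusted p = 2.39e-08). The atypical cadherin FAT4 was at 22.5 ± 1.47 and 33.3 ± 4.41 CPM, 1.47-fold higher (edgeR adjusted p = 3.16e-05). The gene of this list that was not tested was NF2, which encodes merlin, a tumour suppressor that recruits LATS kinases to the membrane. NF2 (ENSG00000186575.13, chr22:29999545-30094587) had 0 counts in all 6 libraries, and it is named because of those counts. A count of 3, taken as the limit that 0 allows, was worth 0.118 to 0.163 CPM in these libraries. Of its neighbours on chromosome 22, NIPSNAP1 had 1444 to 2095 counts, THOC5 978 to 1511 and ZMAT5 214 to 370, whereas CABP7, on the other side of NF2 from NIPSNAP1, had 6 to 10. DNA was not measured here.

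**Figure D5:**
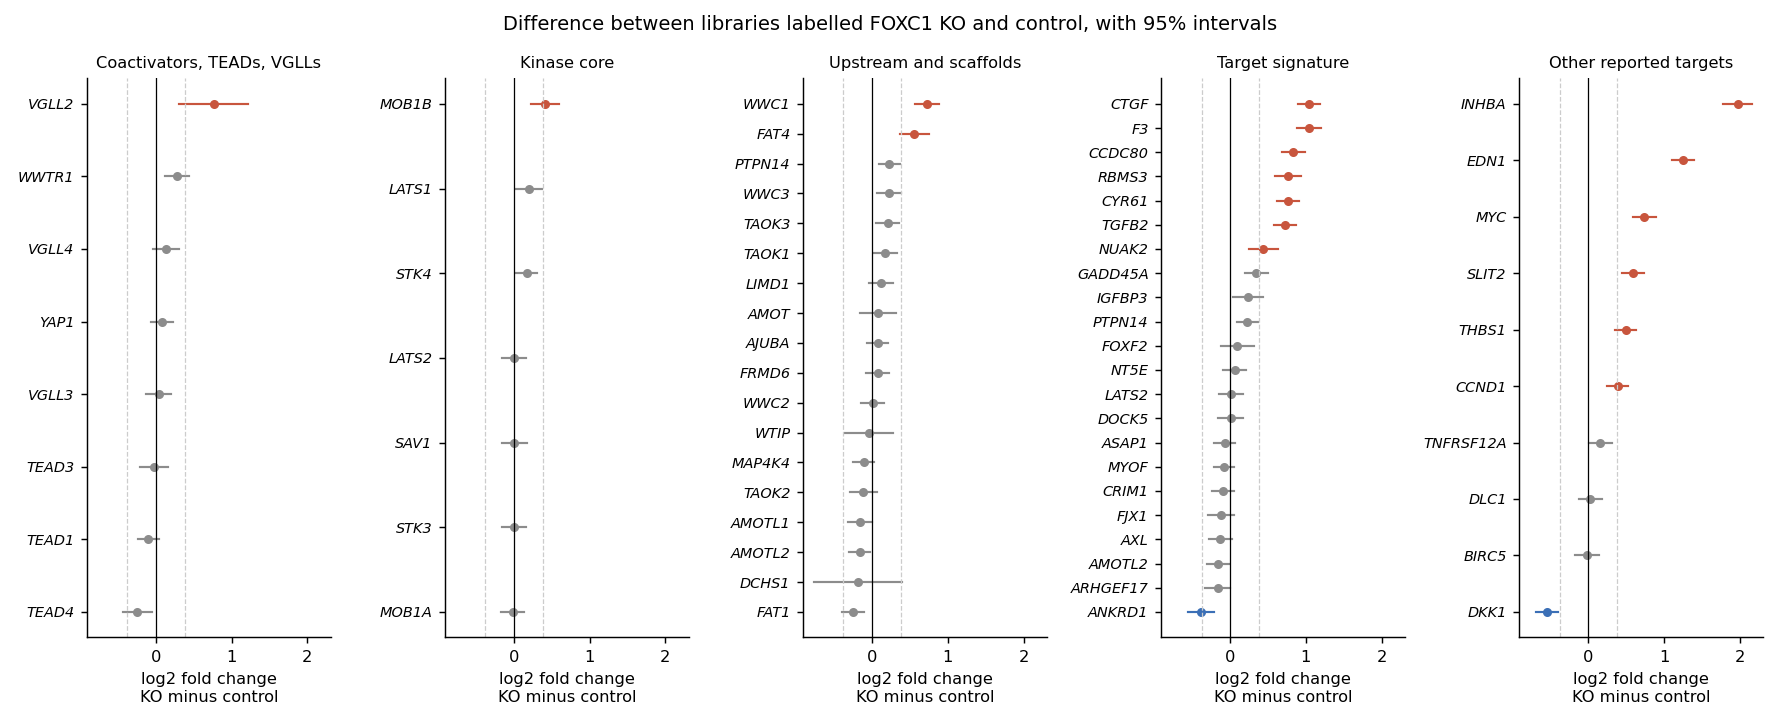
Log2 fold change (KO minus control) with its 95% interval for every tested gene of 5 lists, 1 panel a list; genes called higher are red, lower blue, others grey, and dashed lines mark the 1.3-fold threshold. Of the kinase core MOB1B and of the coactivator list VGLL2 lie past the dashed lines, as do 7 higher genes of the signature and 6 of the other targets.

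The wider set of targets was described with a list of 22 genes often used as a YAP and TAZ signature, of which CTGF, CYR61, ANKRD1, AMOTL2 and LATS2 are members already described. All 22 were tested, with 7 called higher and 1 lower (ANKRD1) and a median log2 fold change of 0.076. The shares over all genes tested were 7.57% higher and 8.39% lower. Of the 17 other genes, 5 were called higher and none lower, with a median of 0.092. A log2 fold change above 0 was found in 11 of the 17, beside 7804 of all 15647 genes tested. F3, tissue factor, was at 137, 164 and 157 CPM in control and 339, 291 and 310 CPM in KO, 2.05-fold higher (edgeR adjusted p = 1.03e-11). The secreted matrix protein CCDC80 rose from 98.5 ± 7.28 to 176 ± 7.73 CPM (edgeR adjusted p = 3.51e-10). TGFB2, a transforming growth factor ligand, rose from 91.9 ± 4.39 to 152 ± 9.77 CPM (edgeR adjusted p = 5.50e-09). The RNA-binding protein gene RBMS3 rose from 23.3 ± 0.621 to 39.6 ± 2.40 CPM (edgeR adjusted p = 2.78e-08). The fifth was the kinase gene NUAK2, at 19.1 ± 2.30 and 25.8 ± 1.09 CPM (log2 fold change 0.44, edgeR adjusted p = 0.000659). Without control replicate 2 its log2 fold change was 0.34, which ended the call and left 6 genes of the signature called higher. In each of these 5 no KO library overlapped a control library, as in 10 of the 17 and in 41.3% of all genes tested. Of the 17, 12 were not called.

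Of 11 further genes reported as YAP or TAZ targets elsewhere, 10 were tested, 6 were called higher and 1 lower, and their median log2 fold change was 0.44. Calls over all genes tested were 7.57% higher and 8.39% lower. INHBA, a subunit of activin A, was at 9.36, 11.5 and 10.5 CPM in control and 40.3, 39.1 and 44.1 CPM in KO, 3.92-fold higher (edgeR adjusted p = 7.44e-16). EDN1, endothelin, was at 72.5 ± 2.73 and 172 ± 7.24 CPM, 2.37-fold higher (edgeR adjusted p = 3.98e-14). Both exceeded CTGF in fold. MYC was 1.67-fold higher, the matricellular THBS1 1.41-fold and the cyclin CCND1 1.31-fold. CCND1 fell short of 1.3-fold without control replicate 2 (log2 fold change 0.36), without KO replicate 1 (0.38, just under the threshold), without KO replicate 3 (0.36) and with a filter at 50 counts (0.37), each leaving 5 genes of the list called higher. The guidance ligand SLIT2 was at 146 ± 1.42 CPM in control and 219 ± 18.8 CPM in KO (log2 fold change 0.59). DKK1, a secreted Wnt antagonist, was at 490 ± 19.3 CPM in control and 334 ± 23.3 CPM in KO and fell 1.47-fold (edgeR adjusted p = 5.18e-07). Many of these genes are known targets of other pathways as well.

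Within the CCN family, to which CTGF and CYR61 belong, the 4 genes tested were split. NOV (CCN3), another secreted matricellular protein, was at 23.3, 23.3 and 23.5 CPM in control and 14.3, 12.6 and 13.0 CPM in KO, 1.75-fold lower (edgeR adjusted p = 5.73e-08). WISP2 (CCN5), which lacks the C-terminal domain of its relatives, was at 14.0, 11.7 and 12.4 CPM in control and 6.74, 9.08 and 9.30 CPM in KO (log2 fold change -0.58, edgeR adjusted p = 0.000312). The family thus held 2 genes higher and 2 lower, against 7.57% and 8.39% over all genes tested. In none of the 4, all of them called, did the groups overlap, and the same held for 41.3% of all genes tested. WISP1 (0, 1 and 0 counts in control, 9, 9 and 8 in KO) and WISP3 (2 to 6 counts) did not pass the filter. Without that filter, 3 genes of the family were called higher and 2 lower, so the even split depends on it.

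CTGF, CYR61 and ANKRD1 are also targets of serum response factor (SRF) with its MRTF cofactors in many cells, and a list of 12 SRF and MRTF genes was set beside them. Of these 7 were called higher and none lower, against 7.57% higher and 8.39% lower over all genes tested. Their median log2 fold change was 0.44, and the summed level of the 12 was 1435 to 1476 CPM in control and 1931 to 1943 CPM in KO. Most of that sum came from TPM1 and VCL, neither of them called. TPM1 was at 718 ± 13.8 CPM in control and 832 ± 18.5 CPM in KO, and VCL at 379 ± 16.2 and 470 ± 21.5 CPM. The smooth muscle actin gene ACTG2 was at 0.430 ± 0.0609 CPM in control and 33.6 ± 2.34 CPM in KO (edgeR adjusted p = 2.04e-22), and TAGLN (transgelin) rose 6.72-fold from 11.1 ± 0.958 to 74.6 ± 4.38 CPM (edgeR adjusted p = 1.38e-19). CNN1 (calponin) had 0 counts in the control libraries and 1.24 ± 0.129 CPM in KO, at least 9.97-fold higher than a floor of 3 counts per control library. That bound lies above the list median, so the median of 0.44 could not depend on it. MYL9 rose 2.36-fold, FHL1 1.83-fold and FHL2 1.37-fold, and SRF itself was at 55.5 ± 4.21 and 74.7 ± 4.29 CPM (edgeR adjusted p = 8.49e-05). The other 5 genes of the list were not called. ACTA2, also a smooth muscle actin gene, was at 1.38 ± 0.192 CPM in control and 1.18 ± 0.134 CPM in KO (log2 fold change -0.23, edgeR adjusted p = 0.489). The MRTF genes MKL1 and MKL2 had log2 fold changes of 0.28 and 0.05, and VCL and TPM1 0.31 and 0.21. The part of these genes in the rise of CTGF and CYR61 was not tested. NUAK2 and SRF are named beyond the 6 genes a list allowed, after their values were seen. The 5 uncalled genes of this list are named outside that rule, also after their values were seen.

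The genes whose pattern was most like that of CTGF over the 6 libraries were SNHG29, CYP24A1 and IL33. Their Pearson correlations with CTGF were 0.9995, 0.9992 and 0.9991 on log2(CPM + 1), given as a description, since all 6 points share the split between 2 groups. Of the genes tested, 85 (0.543%) reached 0.99. The likeness is one of shape and not of size: SNHG29, a small nucleolar RNA host gene, had a log2 fold change of 0.28, and the vitamin D hydroxylase CYP24A1 and the cytokine IL33 had 3.77 and 3.45 from levels of 0.166 and 0.521 CPM in control.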

How the data were processed

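The 6 RNA-seq libraries, 3 from control and 3 from FOXC1 KO J82 cells, had been made with a KAPA mRNA HyperPrep kit and sequenced as paired 75 bp reads. The deposited table holds raw counts per gene, which the authors obtained by aligning to hg19 with STAR and assigning reads to GENCODE version 19 genes with featureCounts of the Subread package. Tool versions, strand and handling of reads that map to several places are not given in the sources used here. Each replicate had its own column of counts. Counts of a gene and of genes that overlap it or are antisense to it cannot be told apart. Annotated genes overlapping the members had at most 45 counts in a library. Groups came from the sample titles, and 0 columns belonged to other samples. Gene names came from the identifiers (55538 of 57820 matched, 96.1%), and coordinates and exon lengths from GENCODE version 44 on GRCh37, the assembly of hg19.

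Genes were filtered with filterByExpr, scaled with TMM and tested in edgeR 4.0.16 (R 4.3.3) by its quasi-likelihood F test with robust dispersion, with group as the only term. Genes were called at a Benjamini-Hochberg adjusted p under 0.05 over all 15647 genes and a fold change over 1.3, after the thresholds of the study, which used DESeq2 (version 1.42.0 here, as an alternative). Standard errors came from the F statistic. Ratios within a library used counts + 0.5 and an exact two-sided permutation test. The procedure was tested on simulated data.

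The members and lists were chosen with earlier results of these data known. Named are FOXC1, the members, the tested genes of the coactivator, kinase core and CCN lists, up to 6 called genes of each other list and direction by smallest p, and the 3 genes most like CTGF. The uncalled genes of the SRF and MRTF list are named as well. In the list of further targets 1 gene is not reported here and was left out of the counts. Alternatives changed the tool (DESeq2), the scaling (RLE or none), the filter (none, or 50 counts on average), the depth (all libraries thinned to the smallest), the model (a block for replicate number), the libraries (each left out in turn), the call rule (glmTreat, a fold of 2, no fold) and the pseudocount of the ratios (0). A floor of 3 counts covers counting error only. Libraries of a group differed by a chi-square per gene of 2.73 to 9.15, more than counting noise, so none was treated as a library deposited again. Independence of the cultures is not shown by this.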

Additional observations from a re-analysis of the deposited data

How the results depend on the processing

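CTGF and CYR61 were called higher under the 13 alternatives of scaling, filter, tool, depth, block and libraries, with log2 fold changes of 1.01 to 1.06 and 0.71 to 0.80. At a fold over 2, only CTGF was called among the members (1 higher, 0 lower). ANKRD1 was lower in all 13, from -0.48 to -0.33, but its call depends on the threshold: 0 members were called lower by glmTreat against a 1.3-fold change and 2 without a fold threshold. Leaving out 1 library gave 0 to 1 members called lower, 0 without control replicate 2 or 3, and in the signature of 22 genes 0 to 1 lower and 6 to 7 higher. Over the whole table, glmTreat called 516 higher and 494 lower, no fold threshold 2372 and 2233, and a fold over 2 called 316 and 321.

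TEAD4 lost its adjusted p under 0.05 with DESeq2 (-0.24), without a filter (-0.25) and after thinning (-0.24), and leaving out libraries gave -0.34 to -0.19. WWTR1 ranged from 0.22 to 0.36 when libraries were left out. AMOTL2 passed with a mean of at least 50 counts (-0.18, adjusted p = 0.0464). LATS2 changed sign with library size alone (-0.0022), with the filter at 50 counts (-0.0073), after thinning (-0.0080) and over left-out libraries (-0.034 to 0.052). The coactivator and TEAD list had 0 called with DESeq2 and with the filter at 50 counts, where VGLL2 was not tested. The kinase core had 0 called after thinning and 0 to 1 when libraries were left out. VGLL2 left with the filter, and with DESeq2 its adjusted p was 0.0931. After thinning, MOB1B had a log2 fold change of 0.376, under the threshold of 0.379 (edgeR adjusted p = 0.00178). For the other changes the cause was not tested.

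The deviations of same-numbered libraries from their group means correlated at -0.027, -0.072 and 0.050. Whether same-numbered libraries were prepared together is not given by the labels. With the replicate number as a block, 2 members were called higher and 1 lower and 1200 and 1351 genes over the whole table. With CTGF at 1.04, CYR61 at 0.76 and ANKRD1 at -0.38, the block changed no call of a member. The median of all genes moved by less than 0.1 under each scaling.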
